A study of Homo sapiens with 16 samples.

Results

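Collagen genes were examined in HT1080, a human fibrosarcoma cell line of mesenchymal origin, in clones made to study silencing by the long non-coding RNA XIST. Every gene with a symbol of the form COL, digits, A, digits that occurred as a unique symbol in both expression tables was taken as a member. There were 43 such genes, of 22892 genes kept in one table and 25606 in the other, and each had a value in all 10 RNA-seq libraries. COL26A1 had a row under that symbol in the NextSeq table alone and was therefore not a member. Expression was given in FPKM, fragments per kilobase of transcript scaled to the mapped fragments of the library, a unit that corrects for transcript length so that levels of different genes may be compared within a library.

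All clones expressed the Tet repressor constitutively, and all but one carried a single full-length XIST cDNA under a doxycycline (DOX) inducible promoter at an FRT site in 1p, 8p or 12q. DOX libraries were taken after 5 days of treatment. The HiSeq table (50 bp paired-end reads) held 6 libraries, namely 8p with No DOX, 8p with DOX (replicates 1 and 2), 1p with DOX, 1p with the empty pcDNA5 vector and DOX, and 12q with DOX. The NextSeq table (76 bp reads) held 4 libraries, namely 1p No DOX, 1p DOX, 12q No DOX and 12q DOX. The lines were single-cell clones, the methods name more than 1 clone for 8p with DOX, and the 12q lines came from another Tet repressor subclone than the 1p and 8p lines, so integration site, clone and founder cannot be told apart. No untransfected HT1080 library was analysed here. The 2 tables were quantified separately, and comparisons were made within a table. Where nothing says that libraries came from separate cultures, p-values measure the spread between these libraries, which may be technical.

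XIST was at 3.38 FPKM in 8p No DOX and at 99.01 and 89.7 FPKM in the DOX replicates. It was at 23.8 FPKM in 1p DOX, 0.0705 FPKM in the empty vector line and 61.9 FPKM in 12q DOX of the HiSeq table. The NextSeq libraries had 4.17 FPKM (1p No DOX), 21.95 FPKM (1p DOX), 3.75 FPKM (12q No DOX) and 67.6 FPKM (12q DOX). The 6 libraries of XIST lines with DOX were thus all above the 4 others. Of 7 mesenchymal markers, 5 were at 1 FPKM or more in all 10 libraries, with VIM between 1644 and 2978 FPKM, while THY1 stayed at or below 0.0813 FPKM. The 3 blood markers were below 1 FPKM throughout. The summed level of 4 epithelial markers was at most 0.0845 FPKM in the HiSeq table and reached 3.76 FPKM in the NextSeq table, in the 12q DOX library, where EPCAM was at 2.38 and CDH1 at 1.38 FPKM. KRT5 was listed at 0 in all 4 NextSeq libraries. Of 3 endothelial markers, CDH5 was at 5.44, 7.06 and 5.70 FPKM in the 3 libraries of 12q and below 1 FPKM in the other 7, whereas PECAM1 and KDR were below 1 FPKM in all.

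Collagens are trimeric proteins with a triple helix that build the extracellular matrix. Fibrillar collagens such as type I form the cables of connective tissue, type IV forms the sheet-like network of basement membranes, and type VI forms beaded microfilaments around cells. FACIT collagens bind to the surface of fibrils, and transmembrane collagens span the cell membrane. Chains are hydroxylated and glycosylated in the endoplasmic reticulum, folded with the help of chaperones, trimmed by propeptidases after secretion and cross-linked by lysyl oxidases.

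RefSeq promoter windows, from 250 bases before to 50 bases after a start, were found for 31 of the 43 members (43 windows, GRCh38.p14). COL6A1 was the 1 gene without a window among the 10 collagens expressed in both tables. Only upstream bases are shown, for COL4A1 and COL4A2, an expressed pair that shares a promoter interval, and for COL6A3 and COL12A1. These last 2 had the largest fold differences between clones among the collagens that were tested and had a window. The windows of COL4A3 and COL4A4, and those of COL4A5 and COL4A6, overlapped as well, but none of these genes was expressed in both tables. COL4A1 (minus strand) and COL4A2 (plus strand) start head to head on chromosome 13, at positions 110307157 and 110307284, and the 126 bases between their starts (chr13:110307158-110307283, plus strand) are upstream of both. The COL6A3 sequence is chr2:237414165-237414414 and the COL12A1 sequence is chr6:75206054-75206303, each of 250 bases on the minus strand. Capitals mark CCAAT and GGGCGG, or their reverse complements ATTGG and CCGCCC.
COL4A1 and COL4A2, shared interval: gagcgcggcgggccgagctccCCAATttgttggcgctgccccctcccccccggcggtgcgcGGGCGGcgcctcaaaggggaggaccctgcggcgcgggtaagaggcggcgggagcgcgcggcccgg
COL6A3, upstream: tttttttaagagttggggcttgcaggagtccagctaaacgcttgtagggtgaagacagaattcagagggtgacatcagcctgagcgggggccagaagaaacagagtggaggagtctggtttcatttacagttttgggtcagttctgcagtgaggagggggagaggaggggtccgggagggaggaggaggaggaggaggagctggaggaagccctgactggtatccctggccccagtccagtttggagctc
COL12A1, upstream: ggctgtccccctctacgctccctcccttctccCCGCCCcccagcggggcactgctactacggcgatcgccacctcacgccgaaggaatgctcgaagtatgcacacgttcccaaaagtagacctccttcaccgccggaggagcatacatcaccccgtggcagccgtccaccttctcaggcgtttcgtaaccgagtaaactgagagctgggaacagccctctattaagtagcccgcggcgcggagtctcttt

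The shared interval held 1 CCAAT and 1 GGGCGG, the COL12A1 sequence held 1 GGGCGG match, and the COL6A3 sequence held neither motif. TATAAA, the third motif searched on both strands, was in none of the 3 sequences. Over all 35116 RefSeq windows of 300 bases, CCAAT was in 34.6 %, GGGCGG in 44.95 % and TATAAA in 11.5 %. The matches are a description of the letters in these windows.

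HT1080 clones expressed a narrow set of collagens. With an average of at least 1 FPKM over the libraries of a table taken as expressed, 10 of the 43 genes were expressed in the HiSeq table and 12 in the NextSeq table, and the 10 were among the 12. Over all genes, 49.6 % (HiSeq) and 44.5 % (NextSeq) reached that level. By class, expressed genes were 2 of 6 basement membrane collagens (COL4A1, COL4A2), 3 of 5 beaded filament collagens (COL6A1, COL6A2, COL6A3), 2 of 4 transmembrane collagens (COL13A1, COL17A1), 2 of 11 fibrillar collagens (COL27A1, COL5A1) and 1 of 10 FACIT collagens (COL12A1). The 2 added by the NextSeq table were COL8A1, a short-chain network collagen, and COL18A1, the source of the endostatin fragment. The summed collagen level was between 239.3 and 337.5 FPKM per library.

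**Figure D1:**
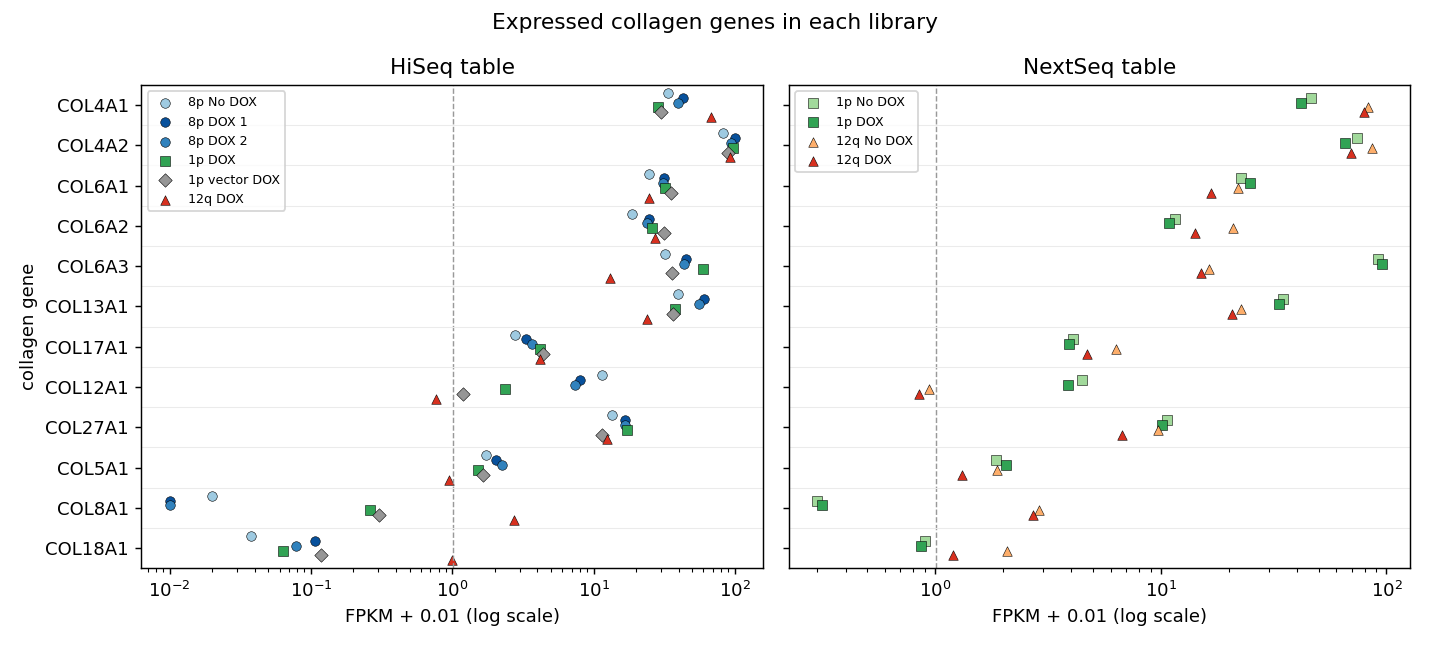
FPKM (log scale, 0.01 added so that zeros can be drawn) of the 12 collagens expressed in at least 1 table, with 1 symbol per library in the HiSeq table (left) and the NextSeq table (right), and a dashed line at 1 FPKM. COL4A2 lies within a narrow band in all libraries, while the 12q triangles lie lowest for COL6A3 and COL12A1 and highest for COL8A1.

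COL4A2, the second chain of the common type IV collagen, had the highest average of the 43 in each table. It was at 82.5 FPKM in 8p No DOX, 99.9 and 94.35 FPKM in the 8p DOX replicates, 96.9 FPKM in 1p DOX, 89.7 FPKM in the vector line and 92.0 FPKM in 12q DOX. Among the NextSeq libraries it was at 73.6 FPKM in 1p No DOX, 65.6 FPKM in 1p DOX, 86.2 FPKM in 12q No DOX and 69.7 FPKM in 12q DOX. Its highest and lowest library thus lay close together in either table, and 1p and 12q overlapped.

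COL4A1, which codes for the partner chain, was at 33.4 FPKM in 8p No DOX, 43.2 and 39.6 FPKM in the 8p DOX replicates, 28.8 FPKM in 1p DOX, 30.05 FPKM in the vector line and 67.9 FPKM in 12q DOX. In the NextSeq table it was at 46.0 FPKM (1p No DOX), 41.7 FPKM (1p DOX), 82.7 FPKM (12q No DOX) and 79.6 FPKM (12q DOX). The 12q libraries were the highest in each table. In hg18, the build of the tables, COL4A1 lies at chr13:109599310-109757497 and COL4A2 at chr13:109757631-109963374.

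The 3 chains of type VI collagen differed in how evenly they were expressed. COL6A1 was at 24.6 FPKM in 8p No DOX, 31.6 and 31.1 FPKM with DOX, 32.2 FPKM in 1p DOX, 35.3 FPKM in the vector line and 24.6 FPKM in 12q DOX. Its NextSeq values were 22.65 and 24.9 FPKM in 1p No DOX and DOX, and 22.0 and 16.7 FPKM in 12q No DOX and DOX. COL6A2 was at 18.7 FPKM in 8p No DOX, 24.5 and 23.8 FPKM with DOX, 26.1 FPKM in 1p DOX, 31.6 FPKM in the vector line and 27.2 FPKM in 12q DOX. In the HiSeq table COL6A1 thus lay between 24.6 and 35.3 FPKM and COL6A2 between 18.7 and 31.6 FPKM. Both ranges were narrower than that of COL6A3. COL6A2 in the NextSeq table was at 11.6 FPKM (1p No DOX), 10.8 FPKM (1p DOX), 20.8 FPKM (12q No DOX) and 14.1 FPKM (12q DOX), with both 12q libraries above both 1p libraries.

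COL6A3, the longest type VI chain, varied far more. It was at 31.9 FPKM in 8p No DOX, 44.96 and 43.8 FPKM in the 8p DOX replicates, 59.3 FPKM in 1p DOX, 35.9 FPKM in the vector line and 13.0 FPKM in 12q DOX. In the NextSeq table it was at 92.0 and 95.75 FPKM in 1p No DOX and DOX, and at 16.3 and 15.1 FPKM in 12q No DOX and DOX. The 12q libraries were the lowest in each table, and 1p DOX the highest.

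COL13A1, a transmembrane collagen found at cell adhesion sites, was at 39.9 FPKM in 8p No DOX, 60.3 and 56.1 FPKM with DOX, 37.65 FPKM in 1p DOX, 36.6 FPKM in the vector line and 23.99 FPKM in 12q DOX. It was at 34.7, 33.4, 22.6 and 20.55 FPKM in 1p No DOX, 1p DOX, 12q No DOX and 12q DOX of the NextSeq table. Here too 12q was lowest, and 8p DOX was highest. COL17A1, the transmembrane collagen of hemidesmosomes, was between 2.77 and 4.36 FPKM in the HiSeq table and between 3.89 and 6.34 FPKM in the NextSeq table.

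COL12A1, a FACIT collagen that binds along type I fibrils, was at 11.5 FPKM in 8p No DOX, 8.03 and 7.43 FPKM in the 8p DOX replicates, 2.34 FPKM in 1p DOX, 1.18 FPKM in the vector line and 0.758 FPKM in 12q DOX. Its NextSeq values were 4.44, 3.87, 0.925 and 0.839 FPKM in the same order of 1p and 12q libraries as above. The 8p libraries were the highest and 12q the lowest. COL27A1, a fibrillar collagen of developing cartilage, was at 13.5 FPKM in 8p No DOX, 16.7 and 16.65 FPKM with DOX, 17.2 FPKM in 1p DOX, 11.55 FPKM in the vector line and 12.5 FPKM in 12q DOX. The NextSeq values of COL27A1 were 10.6, 10.1, 9.66 and 6.71 FPKM in 1p No DOX, 1p DOX, 12q No DOX and 12q DOX. COL5A1, a minor fibrillar chain that helps to start type I fibrils, was between 0.938 and 2.22 FPKM in the HiSeq table and between 1.30 and 2.04 FPKM in the NextSeq table.

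The major fibrillar collagens of fibroblasts were low. COL1A1 was between 0.0877 and 0.488 FPKM in the HiSeq table and at 0.271, 0.134, 1.35 and 1.33 FPKM in 1p No DOX, 1p DOX, 12q No DOX and 12q DOX of the NextSeq table. COL1A2 was listed at 0 in 5 HiSeq libraries and at 0.0175 FPKM in 12q DOX, and in the NextSeq table it was at 0.0690 and 0.0767 FPKM in 1p and at 0.6155 and 1.52 FPKM in 12q. COL3A1 did not exceed 0.101 FPKM in any library. Thus both type I chains were highest in 12q in each table. The 12q DOX library of the NextSeq table, which holds the highest COL1A2 value, is also the one with EPCAM and CDH1 above 1 FPKM, and the part of other RNA in this value was not tested.

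The other members were low. Of the 43, 27 were below 1 FPKM in all 10 libraries, and 15 of those were below 0.1 FPKM in all. COL19A1 was listed at 0 in all 10 libraries. Besides the 12 expressed genes and the 27, 4 genes (COL1A1, COL1A2, COL4A5 and COL16A1) reached 1 FPKM in some library without averaging 1 in either table. COL4A5, a type IV chain encoded on the X chromosome, was between 0.206 and 1.11 FPKM. No library reached 1 FPKM for COL2A1, the collagen of cartilage, or for COL7A1, the anchoring fibril collagen of skin.

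The chain composition set 12q apart. Type IV chains made up 58.7 % of summed collagen FPKM in 12q DOX of the HiSeq table and 60.5 and 62.8 % in 12q No DOX and DOX of the NextSeq table, against 36.5 to 44.3 % in the other 7 libraries. Type VI chains made up 23.7, 21.05 and 19.2 % in the same 12q libraries, against 28.6 to 44.3 % elsewhere. The ranges do not overlap within either table. The ratio of COL4A1 to COL4A2 was 0.739 in 12q DOX of the HiSeq table, against 0.297 to 0.433 in the other 5 libraries. In the NextSeq table this ratio was 0.959 and 1.14 in 12q No DOX and DOX, and 0.625 and 0.635 in 1p. The ratio of COL6A3 to COL6A1 was 0.529 in 12q DOX of the HiSeq table against 1.02 to 1.84 in the other 5, and 0.740 and 0.903 in 12q of the NextSeq table against 4.06 and 3.85 in 1p. These shares and ratios are descriptions and were not tested. Of the endothelial markers given above, CDH5 was also highest in 12q (5.44, 7.06 and 5.70 FPKM). PECAM1 was not, with 0.436 FPKM in 12q DOX and 0.958 FPKM in 1p DOX of the HiSeq table. It was at 0.326 FPKM or less in the other HiSeq libraries. In the NextSeq table PECAM1 was at 0.628 and 0.534 FPKM in 12q and at 0.767 and 0.796 FPKM in 1p. KDR was at most 0.0566 FPKM in 12q and listed at 0 elsewhere. The part of these markers in the collagen differences was not tested.

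**Figure D2:**
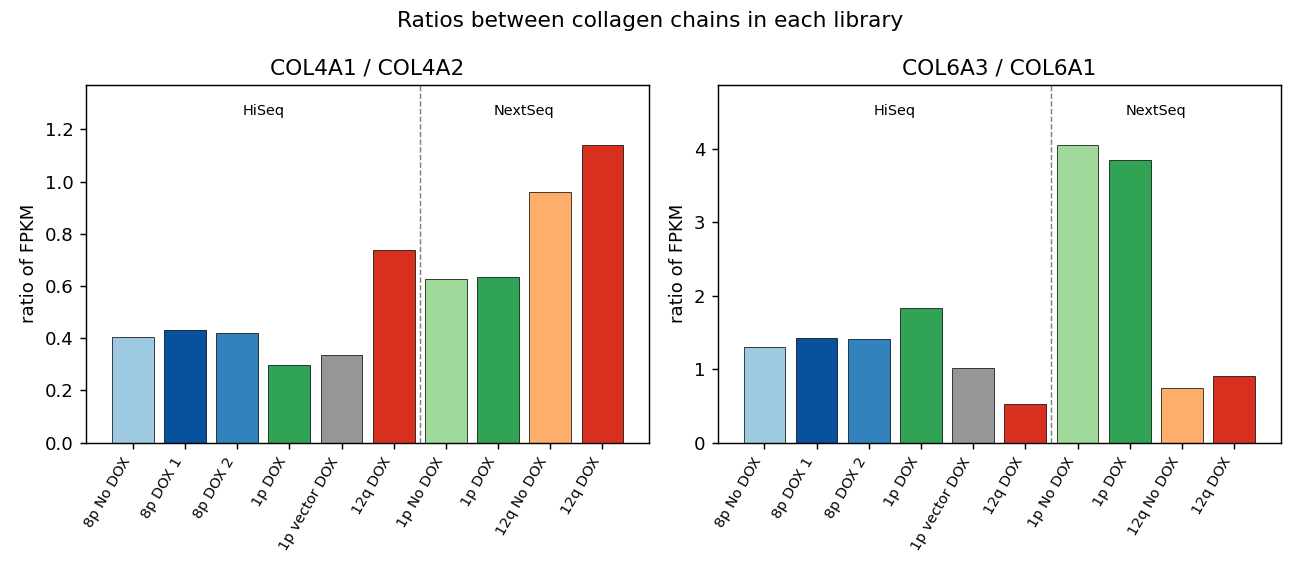
Bars give the ratio of FPKM of COL4A1 to COL4A2 (left) and of COL6A3 to COL6A1 (right) in each of the 10 libraries, with a dashed line between the separately quantified HiSeq and NextSeq tables. Within each table the 12q bars are the highest on the left (0.739, and 0.959 and 1.14) and the lowest on the right (0.529, and 0.740 and 0.903).

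Whether 12q and 1p clones differed was asked first in the NextSeq table, with limma on log2(FPKM + 1) and an additive fit of clone and DOX (2 libraries a clone). This fit leaves 1 residual degree of freedom, which is how unequally the 2 clones responded to DOX and not a spread of replicates. The SE and p-values rest largely on the variance that limma borrows from all genes (3.55 degrees of freedom). Log2 differences on this scale understate those of low genes. The fold values, here and in the comparisons below, are ratios of average FPKM without the added 1. The SE and p-values belong to the log2 differences and not to these ratios. A call needed an adjusted p under 0.05 over all genes that averaged at least 1 FPKM, which 12 of the 43 collagens did. Of these 12, 3 were higher and 3 lower in 12q, where 17.9 % of all genes tested were higher and 15 % lower. The median log2 difference was -0.02 over the 12 and 0.02 over all genes.

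COL6A3 was 5.98-fold lower in 12q (log2 difference -2.51, SE 0.0709, adjusted p = 0.000566). COL12A1 was 4.71-fold lower (log2 difference -1.45, SE 0.123, adjusted p = 0.0047), and COL13A1 was 1.58-fold lower (log2 difference -0.64, SE 0.0656, adjusted p = 0.00658). COL8A1 was at 0.289 and 0.305 FPKM in 1p No DOX and DOX and at 2.86 and 2.70 FPKM in 12q No DOX and DOX. It was 9.35-fold higher in 12q (log2 difference 1.54, SE 0.147, adjusted p = 0.00575). COL4A1 was 1.85-fold higher (log2 difference 0.87, SE 0.0617, adjusted p = 0.00373), and COL6A2 was 1.56-fold higher (log2 difference 0.57, SE 0.125, adjusted p = 0.0315). COL6A2 is the least firm of the 6, since it was at 0.79 in the No DOX pair and 0.35 in the DOX pair and missed the threshold when the variance was not modelled as a trend with expression (adjusted p = 0.0559) or without a filter (adjusted p = 0.0932). Without a filter COL1A1 passed in its place, as higher in 12q.

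COL4A2, although it starts 126 bases from COL4A1 across the interval printed above, differed by 0.16 on the log2 scale (SE 0.0658, adjusted p = 0.134). The difference between both genes in this contrast was not itself tested. The other type VI chain, COL6A1, was at -0.29 (adjusted p = 0.16). COL18A1, COL17A1, COL27A1 and COL5A1 also did not pass, with log2 differences of 0.47, 0.38, -0.32 and -0.20. The median log2 difference of the other genes on the same chromosome was between -0.03 and 0.07 for the 6 collagens that passed.

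The HiSeq table held 1 library of each of these sites with DOX, in libraries separate from the 4 above. They were compared in a fit of group means that leaves 1 residual degree of freedom. It comes from the pair of 8p DOX libraries, and the lone libraries are assumed to vary like it. The SE and p-values rest largely on the variance borrowed from all genes (3.12 degrees of freedom), as in the NextSeq fit. The comparisons below of 1p XIST with empty vector and of 8p DOX with No DOX come from this same fit. The median of all genes was shifted by 0.13 on the log2 scale in favour of 12q, so differences relative to that median are given as well. Of 10 collagens tested, 1 was higher and 6 were lower in 12q, where 24 % of all genes tested were higher and 9.54 % lower. Among all genes called, 71.5 % were higher in 12q, a share that was 51.8 % once the libraries were scaled to the same median. All 7 collagen calls kept their direction and passed after scaling. Without a filter on low values none of the 7 passed (adjusted p between 0.0565 and 0.137), and COL8A1 alone did. Of all genes tested in that way, 0.64 % were called.

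COL6A3 was 4.55-fold lower in 12q DOX than in 1p DOX (log2 difference -2.10, SE 0.0837, adjusted p = 0.00172, -2.23 relative to the median). COL4A1 was 2.36-fold higher (log2 difference 1.21, SE 0.102, adjusted p = 0.00822, 1.08 relative to the median). COL12A1 was 3.08-fold lower (log2 difference -0.92, SE 0.0981, adjusted p = 0.0118), and COL13A1 was 1.57-fold lower (log2 difference -0.63, SE 0.096, adjusted p = 0.0189). These 4 genes passed in the same direction in both tables, and no collagen passed in opposite directions. They are 57.1 % of the 7 calls here and 4 of the 5 NextSeq calls among collagens tested in both tables. The sixth NextSeq call, COL8A1, had no test here. Over the 10196 genes tested in both tables, 52.6 % of the calls here and 53.1 % of the NextSeq calls passed in the same direction in both. COL27A1 (-0.43, adjusted p = 0.0276), COL6A1 (-0.37, adjusted p = 0.0362) and COL5A1 (-0.37, adjusted p = 0.0477) also passed here, and their differences were smaller. COL4A2 was at -0.07 (adjusted p = 0.557). COL6A2, which was higher in 12q in the NextSeq table, was at 0.06 (adjusted p = 0.609). COL8A1 averaged below 1 FPKM and was not in this test. It was at 2.74 FPKM in 12q DOX and 0.253 FPKM in 1p DOX, a log2 difference of 1.58. COL18A1, also not in this test, was at 0.989 FPKM in 12q DOX and 0.0538 FPKM in 1p DOX, a log2 difference of 0.92. The median of the other genes of the chromosome was between 0.08 and 0.19 for the 7 genes.

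**Figure D3:**
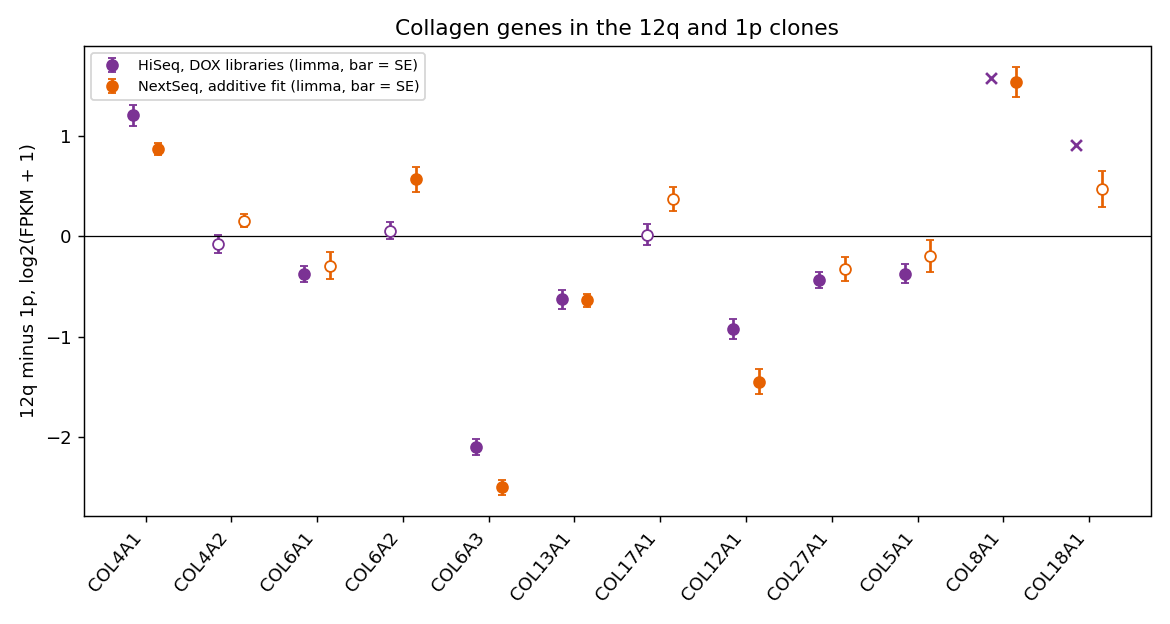
Log2 difference (12q minus 1p, on log2(FPKM + 1)) of 12 collagens in the HiSeq DOX libraries (purple, 1 library a side) and in the NextSeq table (orange, 2 libraries a side), with bars for the SE of limma. Filled points had an adjusted p under 0.05, open points did not, and crosses mark COL8A1 and COL18A1, which were not tested in the HiSeq table. COL4A1 lies above 0 in both tables (1.21 and 0.87), while COL4A2 lies near 0 (-0.07 and 0.16).

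The 3 libraries of 8p were then set against the 3 other HiSeq libraries (1p, vector and 12q). Those of 8p share a site and 1 of them had No DOX, while the 3 others are different lines, all with DOX. The p-values thus measure a spread between libraries, and DOX is not balanced. Of 10 collagens tested, 1 was higher in 8p and 0 were lower, where 4.1 % of all genes tested were higher and 1.07 % lower. Over the 10 collagens 2 had an unadjusted p under 0.05, and 3289 of all genes had. The median of all genes was shifted by 0.22 on the log2 scale in favour of 8p. Among all genes called, 79.4 % were higher in 8p, a share that was 41.5 % after scaling to the same median.

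The 1 collagen was COL12A1, at 7.43 to 11.5 FPKM in 8p and 0.758 to 2.34 FPKM in the others, without overlap. It was 6.30-fold higher (log2 difference 2.07, SE 0.266, adjusted p = 0.0131, 1.86 relative to the median), and the other 590 genes tested on chromosome 6 had a median of 0.25. The call was lost without 8p DOX replicate 1 (log2 difference 2.13, adjusted p = 0.0617) or without replicate 2 (2.18, adjusted p = 0.0543), with a difference of similar size. With DOX libraries only, the log2 difference was 1.90 (adjusted p = 0.0441). COL13A1 had 39.9 to 60.3 FPKM in 8p and 23.99 to 37.65 FPKM elsewhere and did not pass (adjusted p = 0.122). COL4A2 had the smallest difference, -0.01 (adjusted p = 0.959). COL8A1, below the filter, was listed at 0 in both 8p DOX libraries and at 0.0101 FPKM in 8p No DOX, against 0.253, 0.292 and 2.74 FPKM in the other 3.

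The line with an empty vector at the 1p site serves as the control for XIST in 1p, with 1 library a side and DOX in both. Of 10 collagens tested, 3 were higher with XIST and 0 lower, where 27.2 % of all genes tested were higher and 15 % lower. The count of 3 is thus near what that background gives for 10 genes, and the medians were -0.01 over the collagens and 0.09 over all genes. Among all genes called, 64.5 % were higher, a share that was 46.2 % after scaling. COL6A3 was 1.65-fold higher (log2 difference 0.71, SE 0.0837, adjusted p = 0.00974), COL12A1 1.98-fold (0.62, SE 0.0981, adjusted p = 0.0158) and COL27A1 1.49-fold (0.54, SE 0.0825, adjusted p = 0.0146). COL6A2 had a log2 difference of -0.27 and did not pass. The other genes of the chromosomes of COL6A3, COL12A1 and COL27A1 had medians between 0.06 and 0.13. After scaling, COL6A1 and COL6A2 passed as lower in the XIST line as well, which made 5 calls, and without a filter on low values none passed. Of all genes tested, 43.9 % were called after scaling and 0.28 % without a filter, against 42.2 % without these changes. COL4A1 was at -0.06 (adjusted p = 0.671) and COL4A2 at 0.11 (adjusted p = 0.385), while the other 205 genes tested on chromosome 13 had a median of -0.43. Expression of XIST and the difference between the 2 clones cannot be told apart.

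What DOX changed was asked in 8p, with 2 DOX libraries against 1 No DOX library. With DOX, COL13A1, the 3 type VI chains and COL27A1 were 24 to 46 % higher in FPKM, and COL12A1 was 33 % lower. Of 10 collagens tested, 5 were higher and 1 lower, where 11.3 % of all genes tested were higher and 19.8 % lower. The median log2 difference was 0.29 over the 10 collagens and -0.06 over all genes. Among all genes called, 36.4 % were higher, a share that was 59.4 % after scaling.

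COL13A1 rose from 39.9 FPKM to 60.3 and 56.1 FPKM (log2 difference 0.53, SE 0.0832, adjusted p = 0.0224). COL6A3 rose from 31.9 FPKM to 44.96 and 43.8 FPKM (0.46, SE 0.0725, adjusted p = 0.0223). The other type VI chains rose as well, with log2 differences of 0.34 for COL6A1 (SE 0.0712, adjusted p = 0.0352) and 0.35 for COL6A2 (SE 0.0731, adjusted p = 0.0351). COL27A1 passed narrowly (0.29, SE 0.0715, adjusted p = 0.0495) and missed the threshold with a pseudocount of 0.1 (adjusted p = 0.0527) or without the variance trend (adjusted p = 0.0509). COL12A1 fell from 11.5 FPKM to 8.03 and 7.43 FPKM (log2 difference -0.51, SE 0.085, adjusted p = 0.0238). Both type IV chains were at 0.30 (COL4A1, adjusted p = 0.0687) and 0.23 (COL4A2, adjusted p = 0.0952) and did not pass. Both passed after scaling to the same median, which gave 8 calls, and COL4A1 also passed when genes averaging below 5 FPKM were left out (7 calls). Of all genes tested, 32.5 % were called after scaling and 42.3 % with the 5 FPKM filter, against 31.1 % without these changes. COL17A1 and COL5A1 were at 0.25 and 0.20 and did not pass. The other genes of the chromosomes of the 6 collagens had medians between -0.08 and -0.04.

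In both DOX replicates 9 of the 10 collagens were above the single No DOX library, where 44.3 and 40.5 % of all genes were, and the replicates differed from each other by at most 0.12 on the log2 scale for these genes. The comparison rests on 1 No DOX library. Without a filter on low values, when many near-silent genes enter the model, no collagen passed, and 0.082 % of all genes tested did. The methods name more than 1 clone among the 8p DOX libraries, so DOX and clone cannot be told apart.

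In the NextSeq table, DOX was compared with No DOX over 1p and 12q together. None of the 12 collagens tested was called by limma, where 0 % of all genes tested were higher and 0.00877 % (1 gene) lower. XIST was not called either, although it rose from 4.17 to 21.95 FPKM in 1p and from 3.75 to 67.6 FPKM in 12q. A response that differs between the clones counts as error in this fit. The lack of calls therefore cannot show that DOX left the collagens unchanged. Over the 12 collagens 1 had an unadjusted p under 0.05, and 746 of all genes had. That collagen was COL4A2, with a log2 difference of -0.23 (SE 0.0658, adjusted p = 0.702). All 12 estimates were below 0, from -0.31 for COL6A2 to -0.02 for COL8A1, with adjusted p between 0.702 and 0.981. Of the estimates for all genes tested, 45.9 % were above 0. The median was -0.12 over the 12 and -0.01 over all genes.

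Taken by clone, and over the 10 collagens expressed in both tables, 1p had 3 collagens above and 7 below No DOX with a median of -0.06, and 12q had 0 above and 10 below with a median of -0.31. The medians of all genes in the same pairs were 0 and -0.02, and 49.6 and 44.5 % of all genes were above No DOX. The 12q DOX library is the one in which EPCAM was at 2.38 and CDH1 at 1.38 FPKM, both listed at 0 in 12q No DOX, and the part of other RNA in its values was not tested. The largest differences in 12q were for COL6A2 (-0.53), COL27A1 (-0.47), COL6A1 (-0.37) and COL17A1 (-0.37). These are single pairs of libraries, for which no test was made, and the labels number the 1p libraries differently with and without DOX (1A and 2A). COL12A1 was below No DOX in all pairs.

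**Figure D4:**
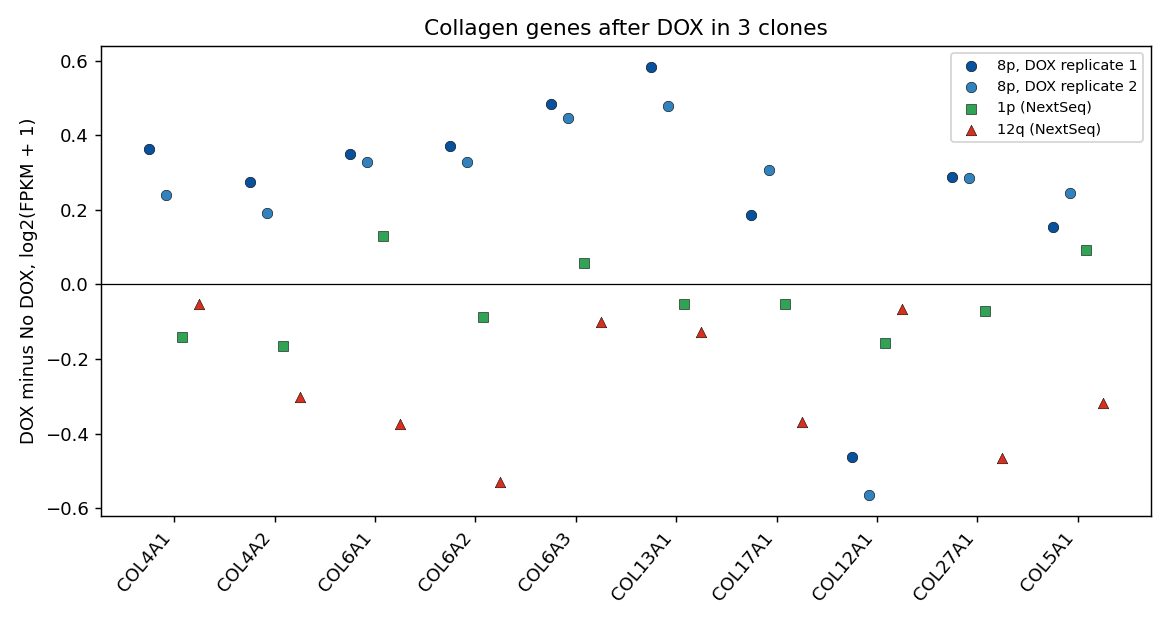
Log2 difference (DOX minus No DOX, on log2(FPKM + 1)) of the 10 collagens expressed in both tables, with 1 point for each 8p DOX replicate against the same No DOX library (blue circles), for the 1p pair (green square) and for the 12q pair (red triangle). Except for COL12A1, which lies below 0 for all, both 8p points lie above 0 and the 12q point lies below 0. How many of all genes had opposite directions in 8p and 12q was not counted.

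Of 38 listed genes for the maturation, processing, cross-linking and binding of collagens, 28 were tested in each table. In the NextSeq comparison of 12q with 1p, 4 were higher and 7 lower in 12q (14.3 and 25 %, against 17.9 and 15 % of all genes tested). Without a filter on low values, 7 of these 11 still passed. SERPINH1, the collagen chaperone HSP47, was at 55.4 and 47.8 FPKM in 1p No DOX and DOX and at 100.3 and 97.4 FPKM in 12q (1.92-fold higher, adjusted p = 0.00397). SPARC, a collagen-binding matricellular protein, was 1.68-fold higher (adjusted p = 0.00401), as were the lysyl oxidase homologue LOXL2 (1.35-fold) and MIA3, which exports procollagen from the endoplasmic reticulum (1.37-fold). PCOLCE, an enhancer of the removal of procollagen C-propeptides, was 5.48-fold lower (adjusted p = 0.00425). LOXL1 was 2.90-fold, PCOLCE2 2.05-fold and LOX 1.86-fold lower, the first and the last being lysyl oxidases. The galactosyltransferase GLT25D2 was 1.92-fold lower, and the lysyl hydroxylase PLOD3 1.35-fold lower.

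In the HiSeq comparison of 12q DOX with 1p DOX, 3 of the 28 were higher and 7 lower in 12q (10.7 and 25 %, against 24 and 9.54 % of all genes tested). Without a filter, none of the 10 passed (adjusted p between 0.0606 and 0.118), and 84 higher and 32 lower genes were left of 18208 tested. SERPINH1 was at 100.2 FPKM in 12q and 50.3 FPKM in 1p (1.99-fold higher, adjusted p = 0.00903), and SPARC and LOXL2 were 1.47-fold and 1.33-fold higher. PCOLCE was 6.54-fold lower (adjusted p = 0.0065) and LOXL1 3.47-fold lower (adjusted p = 0.00312). The proteoglycan gene BGN was 2.95-fold lower, GLT25D2 2.10-fold, and BMP1, the procollagen C-proteinase, 1.90-fold. LEPREL2, a prolyl 3-hydroxylase, was 1.47-fold lower. LOX, PCOLCE2, PLOD2 and MIA3, which passed in the NextSeq table, did not pass here, with log2 differences of -0.01, -0.17, 0.05 and 0.32.

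In 8p against the other HiSeq libraries, 2 of the 28 were higher and 0 lower (7.14 and 0 %, against 4.1 and 1.07 % of all genes tested), and neither passed without a filter (adjusted p of 0.064 and 0.0803). SPARC averaged 278 FPKM in 8p and 106.5 FPKM elsewhere (2.61-fold, adjusted p = 0.0308), and the prolyl 3-hydroxylase LEPRE1 was 1.87-fold higher (adjusted p = 0.0494). PCOLCE did not pass (log2 difference -2.65, adjusted p = 0.0652), at 0.175 to 0.472 FPKM in 8p and 1.49 to 18.5 FPKM in the others. In 8p with DOX against No DOX, 8 were higher and 0 lower (28.6 and 0 %, against 11.3 and 19.8 % of all genes tested). Without a filter, none of the 8 passed (adjusted p between 0.116 and 0.161), nor was any gene of the table higher. The 6 largest differences were those of LOXL3 (1.57-fold, adjusted p = 0.0179), BGN (1.58-fold, adjusted p = 0.0183), the collagen foldase FKBP10 (1.44-fold, adjusted p = 0.0209), SPARC (1.39-fold, adjusted p = 0.0246), the export factor CTAGE5 (1.47-fold, adjusted p = 0.0246) and LEPRE1 (1.34-fold, adjusted p = 0.0261). The median log2 difference was 0.19 over the 28 genes. For DOX in the NextSeq table all 28 were uncalled by limma, in the fit that did not call XIST either, with a median of -0.02.

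Between XIST and empty vector at 1p, 13 of the 28 were higher and 4 lower with XIST (46.4 and 14.3 %, against 27.2 and 15 % of all genes tested). Without a filter, none of the 17 passed (adjusted p between 0.0731 and 0.172), and 13 higher and 38 lower genes were left in the table. LOX was at 16.1 FPKM with XIST and 5.32 FPKM with the vector (3.03-fold, adjusted p = 0.00518), and SERPINH1 at 50.3 and 20.6 FPKM (2.44-fold, adjusted p = 0.0054). LOXL1 was 2.02-fold and BMP1 2.09-fold higher. PPIB, an endoplasmic reticulum prolyl isomerase, and the galactosyltransferase GLT25D1 were 1.61-fold and 1.63-fold higher. BGN was at 2.69 FPKM with XIST and 13.9 FPKM with the vector (5.14-fold lower, adjusted p = 0.00246). PCOLCE was 1.90-fold, MIA3 1.46-fold and CRTAP, a partner of prolyl 3-hydroxylase, 1.26-fold lower.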

How the data were processed

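RNA-seq of polyA-selected RNA was analysed in 10 libraries of HT1080 clones, and the ChIP-seq samples of the series were not used here. The authors aligned reads to hg18 with TopHat and Bowtie and estimated gene FPKM with Cufflinks, per the labels and methods, and deposited 1 FPKM table for each sequencer. Tool versions and the gene annotation were not given in the sources used here. FPKM keep no read counts, so depth is unknown and no counting interval can be given. Columns of other samples were 0 in number. Of 23653 and 26512 lines, those with a repeated symbol (739 and 882), a symbol turned into a date (22 and 22) or no value (0 and 2) were dropped.

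Differences were tested on log2(FPKM + 1) with limma 3.58.1 (lmFit, eBayes with trend, two-sided, R 4.3.3) over all genes averaging at least 1 FPKM in a table, with Benjamini-Hochberg adjustment and a threshold of 0.05. The 6 comparisons used all libraries of their table, namely 2 groups for 8p against the others, 5 group means for the other HiSeq comparisons, and an additive fit of clone and DOX for NextSeq. The script was tested on simulated data. Values are given for collagens averaging at least 5 FPKM, for each collagen called, and for at most 6 called genes of the related list in each direction. Members, lists and tests were chosen with earlier results of these data known. Promoter windows are from RefSeq (GRCh38.p14), a build other than that of the tables, and were matched by symbol. Alternatives were a pseudocount of 0.1, no filter or one of 5 FPKM, libraries scaled to the same median ratio, eBayes without trend, and leaving out libraries.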

Additional observations from a re-analysis of the deposited data

Results flagged for a closer look

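For 6 of the 10 collagens expressed in both tables, both 8p DOX replicates were above No DOX while both the 1p and the 12q pair were below it, a pattern that 1020 of all 10196 genes expressed in both tables had. Both replicates were set against the same No DOX library. The mean log2 difference in 8p minus that of 1p and 12q was 0.658 for COL6A2 (0.349 against -0.309), 0.622 for COL13A1 (0.531 against -0.091), 0.555 for COL27A1 (0.286 against -0.269), 0.467 for COL4A2 (0.233 against -0.233), 0.457 for COL17A1 (0.247 against -0.211) and 0.398 for COL4A1 (0.301 against -0.0968). The difference between sites was not tested, since 8p and the other sites lie in separately quantified tables.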

How the results depend on the processing

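The count of collagens called was computed under another pseudocount, 2 other filters, median scaling and eBayes without trend. Most counts (34 of 41 alternatives) stayed within 1.5 times the value given. Without a filter, the count was 0 for 8p DOX against No DOX, 0 for 1p XIST against vector and 1 (COL8A1, higher) for 12q against 1p in the HiSeq table. Of all genes tested, 0.082, 0.28 and 0.64 % were called without a filter in these comparisons, in that order. Scaling gave 5 calls for 1p XIST against vector, where 43.9 % of all genes tested were called. At a threshold of 5 FPKM, 7 collagens counted as expressed in the NextSeq table. Leaving out 1 library at a time gave 0 to 1 calls for 8p against the others, with 0 without either 8p DOX replicate. The causes were not tested. No direction was reversed for a collagen that passed, 22 of 143 values for single collagens lost their call, most of them without a filter, and COL6A3 and COL6A2 moved by more than the spread when the NextSeq pairs were taken alone. Values set beside each other from both tables, 8p ranges against each other library, and the fits without a filter for the related genes were added after the data had been seen. Each 8p DOX replicate alone against No DOX kept the direction of the 6 collagens that passed, as values with no test. No paired analysis was possible by replicate number because no comparison has 2 groups with 2 or more numbers in common, while the NextSeq DOX comparison was made within clone, which is a term of its fit. Depth is unknown for all comparisons, and 1 library stands in at least 1 arm of the 3 HiSeq comparisons other than 8p against the others.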
